A study of Malus domestica with 16 samples.

Results

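Expression of a universal stress protein gene, MDP0000142824, and of a chaperone gene, MDP0000574524, was followed in the peel of cold-stored apples. They are 2 of the 59208 gene models with a sense probe on the array, and the probes were found by name, the gene model followed by the suffix that marks the sense strand. Both genes were chosen with their log2 ratios on these arrays known. MDP0000142824 was taken as a response to 1-MCP alone and MDP0000574524 as one shared by 1-MCP and ozone. The values of their sense probes are therefore a description and carry no test. With ozone alone over untreated fruit, the mean log2 ratio was 0.96 for MDP0000142824 and 0.83 for MDP0000574524. The size of the ozone ratio thus did not set the genes apart. No chromosome, start or end is given, because the reference table used here held neither gene model.

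Peel RNA of wild-type Granny Smith apples was compared on 8 two-colour Agilent arrays after 6 months at 0°C and 95% relative humidity. The fruit had been treated with 1-MCP for 24 h before storage (1-MCP), had the same treatment and storage air with 0.3 µl/L of ozone (1-MCP+O3), had ozone alone (O3), or had neither (Control). Fruit with and without ozone was kept in separate cold rooms, so room and ozone cannot be told apart. The fruit was picked at physiological maturity, a stage that the labels also call full ripe and the methods do not. The dose of 1-MCP is 1000 ppm in the sample labels and 1 µl/L in the methods. A group was represented by 2 RNA extracts, called A and B, with peel of 7 fruits in a sample. Each of the 4 comparisons (1-MCP vs Control, O3 vs Control, 1-MCP+O3 vs Control and 1-MCP+O3 vs O3) had 1 array for replicate A, with the first-named group in Cy3, and 1 for replicate B, with the first-named group in Cy5. Dye and replicate can therefore not be told apart within a comparison, and the 3 comparisons with Control share its extracts. The arrays of 1-MCP vs Control and O3 vs Control were on the same slide, and those of both 1-MCP+O3 comparisons on another. A difference across these pairs of comparisons can therefore not be told apart from a difference between slides.

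1-MCP is a gas that binds ethylene receptors and blocks the perception of ethylene, the ripening hormone of apple, and ozone is an oxidant. Universal stress proteins are small proteins with a nucleotide-binding fold, known from bacteria to plants, whose genes respond to many stresses. Small heat shock proteins, which carry the alpha-crystallin domain also called HSP20, are ATP-independent chaperones that hold unfolding proteins until chaperones of the HSP70 and HSP101 families can refold them. HVA22 proteins, first described in barley as induced by abscisic acid and stress, are membrane proteins of another family. The study's text gives MDP0000574524 the names HVA22 homologue D and HSP20-like chaperone. Its annotation table pairs the gene model with the Arabidopsis class I small heat shock protein gene AT1G07400 and gives the name HVA22 homologue D to another model, MDP0000324254, so MDP0000574524 is called a class I small heat shock protein gene here. MDP0000142824 is paired with the Arabidopsis universal stress protein gene AT3G62550.

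Of the spots on an array, 47.8% to 54.9% were well above background in Cy3 and 36.1% to 43.6% in Cy5. The log2 ratios of the sense probes correlated between replicates A and B at 0.465 in 1-MCP vs Control, 0.139 in O3 vs Control, 0.289 in 1-MCP+O3 vs Control and 0.179 in 1-MCP+O3 vs O3, over probes of the same array design and with the dyes exchanged. The 5 peel genes set as markers of epidermis and cuticle (CUT1, 2 gene models of CER1 and 2 of FDH) were well above background in all 16 channels. The markers came from rows of the study's annotation table, most of which the study had picked as higher in 1-MCP vs Control. They were higher on both arrays, for 5 of 5, in 1-MCP vs Control, 1-MCP+O3 vs Control and 1-MCP+O3 vs O3, with median log2 ratios of 1.62, 1.08 and 1.74, and had a median of -0.27 in O3 vs Control, with a range from -0.67 to -0.25. In extracts of whole peel, more cells of a type and more RNA per cell cannot be told apart, and the part of the markers' difference in the results below was not tested.

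The universal stress protein gene MDP0000142824 was much brighter in both groups that had received 1-MCP than in O3 or Control. Its 2 sense spots were well above background in every channel of the 8 arrays, and none was saturated or marked as an outlier. The median signal in the scanned Cy3 image of 1-MCP replicate A was 24008, against 354 in Cy5 for Control replicate A on the same array. In replicate B, with the dyes exchanged, it was 10397 in Cy5 for 1-MCP, against 439 in Cy3 for Control. The direction was thus the same with either dye.

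After normalization within arrays and across channels, the log2 intensity of MDP0000142824 was 13.64 and 13.55 in the 1-MCP extracts A and B. In 1-MCP+O3 it was 14.17 and 14.52 in the hybridizations of extract A and 13.54 and 13.65 in those of extract B. In O3 it was 9.32 and 9.30 for extract A and 9.66 and 9.64 for extract B. In Control it lay between 8.38 and 9.34 in the 3 hybridizations of extract A, and between 8.15 and 8.29 in those of extract B. The order of the group means was 1-MCP+O3 at 13.97 ± 0.53 (SD, n = 2 extracts), 1-MCP at 13.60 ± 0.06, O3 at 9.48 ± 0.24 and Control at 8.52 ± 0.44. The ranges of 1-MCP and 1-MCP+O3 overlapped, and so did those of O3 and Control, since the lowest O3 value (9.30) was below the highest Control value (9.34). No hybridization of a 1-MCP-treated group overlapped with one of O3 or Control. Over all sense probes, every 1-MCP hybridization lay above every Control one for 10.5%, every 1-MCP+O3 one above every Control one for 6.93%, and every 1-MCP+O3 one above every O3 one for 6.83%.

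**Figure D1:**
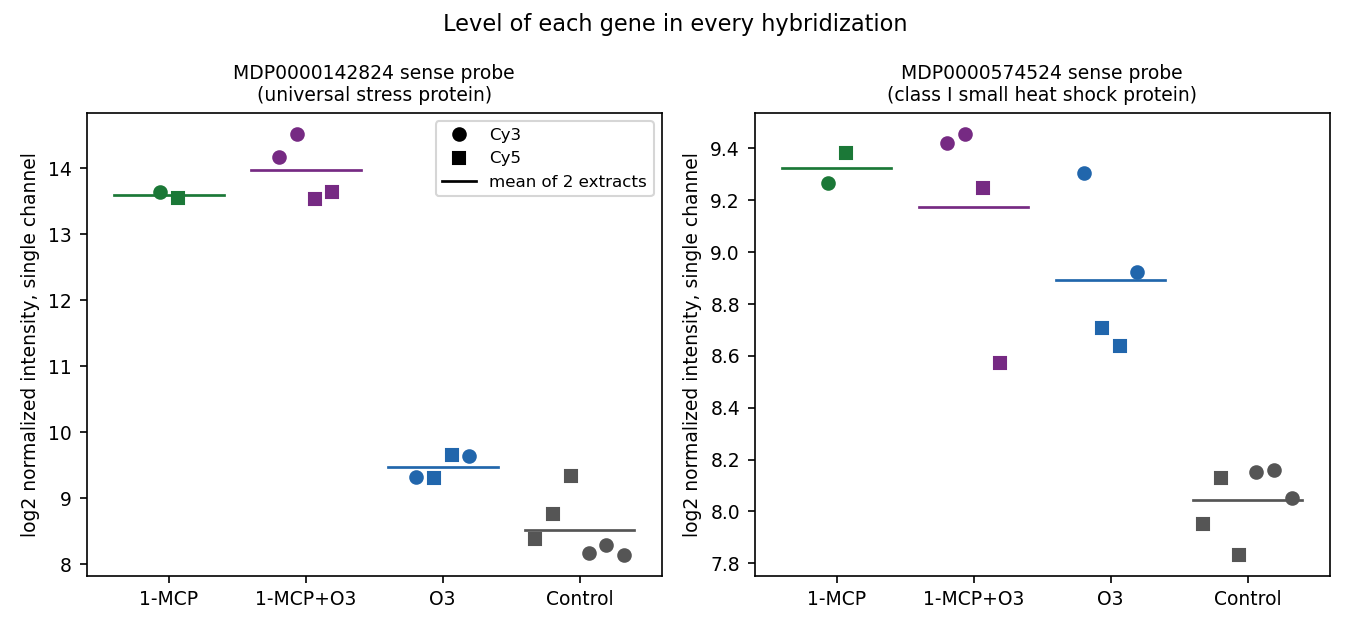
Log2 normalized intensity (vertical axis) of the sense probes of MDP0000142824 (left) and MDP0000574524 (right) in each hybridization of 1-MCP, 1-MCP+O3, O3 and Control fruit. Circles are Cy3 and squares Cy5 channels, and lines are means of 2 extracts. The universal stress protein gene lies at 13.54 or above in every 1-MCP-treated hybridization and at 9.66 or below in the others, whereas for the small heat shock protein gene all treated hybridizations lie above Control (8.16 or below).

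On the arrays of 1-MCP vs Control the log2 ratio of MDP0000142824 was 5.25 and 5.37, a mean of 5.31 ± 0.09 (SD, n = 2 arrays) or 39.8-fold. In 1-MCP+O3 vs Control it was 4.83 and 5.40, a mean of 5.11 ± 0.40 or 34.6-fold. In 1-MCP+O3 vs O3 it was 5.21 and 4.01, a mean of 4.61 ± 0.85 or 24.4-fold. Against Control with ozone alone the ratio was far smaller, at 0.56 and 1.37, a mean of 0.96 ± 0.58 or 1.95-fold. Among the sense probes the gene ranked 3 from the top in 1-MCP vs Control, 1 in 1-MCP+O3 vs Control and 1 in 1-MCP+O3 vs O3, and 1147 in O3 vs Control, ranks that the choice of the gene used.

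The 2 spots of the probe differed most on the arrays of 1-MCP+O3 vs Control, where the log2 ratios of single spots ran from 4.58 to 6.22, while in 1-MCP vs Control they ran from 5.07 to 5.51. The 1-MCP effect in ozone (1-MCP+O3 vs O3) minus the effect without ozone (1-MCP vs Control) was -0.04 in replicate A and -1.37 in replicate B, a mean of -0.70 ± 0.94 (SD, n = 2). These comparisons have no extract in common. Taken through the Control arrays instead, 1-MCP+O3 vs Control minus the sum of 1-MCP vs Control and O3 vs Control was -0.97 in A and -1.35 in B, a mean of -1.16 ± 0.26, and the terms of this difference share the Control extracts. Both differences use the ratios on which the gene was chosen, set arrays of different slides against each other, and carry no test. The O3 extracts were hybridized once in each dye, and for this probe Cy3 minus Cy5 of the same extract was 0.02 for A and -0.02 for B.

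**Figure D2:**
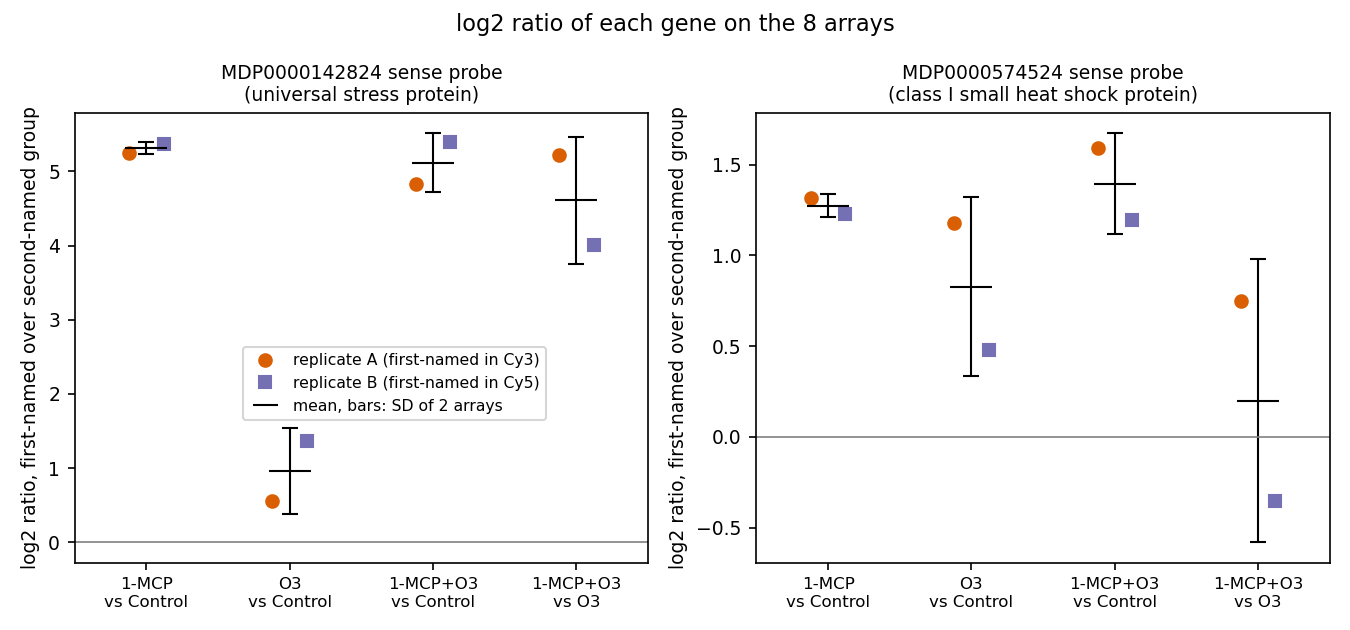
Log2 ratio (vertical axis, first-named over second-named group) of the sense probes of MDP0000142824 (left) and MDP0000574524 (right) in the 4 comparisons. Circles are replicate A, squares replicate B, and bars show the mean ± SD of 2 arrays. The universal stress protein gene stands at 4.61 to 5.31 in the 3 comparisons that add 1-MCP and at 0.96 in O3 vs Control; the small heat shock protein gene stands at 0.83 to 1.39 against Control and at 0.20 in 1-MCP+O3 vs O3.

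The small heat shock protein gene MDP0000574524 was higher than in Control after each of the 3 treatments, by a modest factor. Its 2 sense spots were well above background in every channel. The log2 intensity was 9.27 and 9.38 in the 1-MCP extracts A and B. In 1-MCP+O3 it was 9.42 and 9.46 for extract A and 9.25 and 8.57 for extract B. In O3 it was 9.31 and 8.71 for extract A and 8.64 and 8.92 for extract B, and in Control it lay between 7.83 and 8.13 for extract A and between 8.05 and 8.16 for extract B. Every treated hybridization thus lay above every Control one, which over all sense probes held for 10.5% in 1-MCP, 4.16% in O3 and 6.93% in 1-MCP+O3, while the 3 treated groups were not set apart from each other. The group means were 9.32 ± 0.08 in 1-MCP, 9.17 ± 0.37 in 1-MCP+O3, 8.89 ± 0.16 in O3 and 8.05 ± 0.11 in Control (SD, n = 2 extracts).

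The log2 ratio of MDP0000574524 was 1.32 and 1.23 in 1-MCP vs Control, a mean of 1.27 ± 0.06 (SD, n = 2 arrays) or 2.42-fold. In O3 vs Control it was 1.18 and 0.48, a mean of 0.83 ± 0.49 or 1.78-fold. In 1-MCP+O3 vs Control it was 1.59 and 1.20, a mean of 1.39 ± 0.28 or 2.63-fold. It was thus higher on both arrays of each comparison with Control, as were 26.4%, 23.6% and 26.3% of all sense probes in the same order (24.3% in 1-MCP+O3 vs O3). In 1-MCP+O3 vs O3 the arrays pointed in opposite directions, at 0.75 for A and -0.35 for B, a mean of 0.20 ± 0.78 or 1.15-fold. The same contrast taken through Control (1-MCP+O3 vs Control minus O3 vs Control) was 0.41 for A and 0.72 for B, a mean of 0.57 ± 0.22, so the direct and the indirect values differed by 0.34 in A and -1.07 in B. The 1-MCP effect in ozone minus the effect without ozone was -0.57 in A and -1.58 in B, a mean of -1.07 ± 0.72 (SD, n = 2), and taken through the Control arrays -0.90 and -0.51, a mean of -0.71 ± 0.28. A gene chosen for a response shared by 1-MCP and ozone tends to give a negative value here, and neither difference carries a test. Both differences also set arrays of different slides against each other. For this probe Cy3 minus Cy5 of the same O3 extract was 0.60 for A and 0.29 for B, beside ozone ratios of 1.18 in A and 0.48 in B. In all 4 comparisons the ratio of this probe was higher on the array that had the first-named group in Cy3 (replicate A) than on the other, and dye and replicate cannot be told apart in this difference.

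The antisense probes of both genes took no part in their selection and were tested with limma over all probes. The antisense probe of MDP0000142824 was well above background in 2 of 2 channels of 1-MCP and 4 of 4 of 1-MCP+O3, and in 0 of 4 of O3 and 0 of 6 of Control. Its log2 intensity was 7.41 and 6.94 in 1-MCP and 7.14 to 8.24 in 1-MCP+O3, against 5.80 to 6.75 in O3 and 5.65 to 6.58 in Control, where the spots were not well above background. Against Control it rose in 1-MCP by 1.34 and 1.05 (mean log2 ratio 1.20 ± 0.20, SD, n = 2; limma, adjusted p = 0.236) and in 1-MCP+O3 by 1.59 and 1.64 (1.61 ± 0.04; adjusted p = 0.337). It was also called in 1-MCP+O3 vs O3, at 1.49 and 1.34 (1.42 ± 0.11; limma, adjusted p = 0.422). Calls are at the methods' unadjusted p under 0.01, and at this threshold 0.594%, 0.295% and 0.24% of all antisense probes were called up in the same 3 comparisons, and 0.231% in O3 vs Control.

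As O3 and Control were below background for the antisense probe of MDP0000142824, the differences are bounds, at least 2.29-fold in 1-MCP vs Control, 2.85-fold in 1-MCP+O3 vs Control and 2.62-fold in 1-MCP+O3 vs O3. Each bound sets the mean of the brighter group against the mean, per array, of the dim spot or of the lowest signal well above background, whichever was higher. In O3 vs Control it gave -0.14 and 0.18 and was not called, with both groups below background. With median centring in place of loess the log2 ratio was 1.28 in 1-MCP vs Control (p of 0.0132) and 1.76 in 1-MCP+O3 vs O3 (p of 0.017). With single channels fitted without the pairing on arrays it was 1.12 in 1-MCP vs Control (p of 0.0252). These calls ended although the ratios were of similar or greater size. Whether the antisense signal is independent of the bright sense transcript was not tested. The antisense probe of MDP0000574524 was well above background in 2 of 4 channels of 1-MCP+O3, both of replicate A, and in none of the other groups, and its mean log2 ratios of -0.03 to 0.13 were not called in any of the 4 comparisons.

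**Figure D3:**
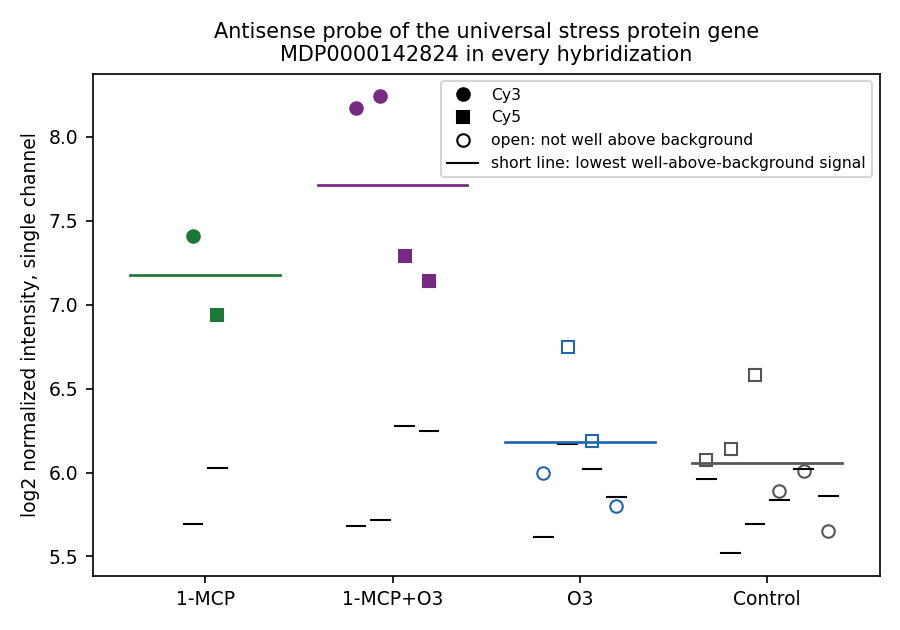
Log2 normalized intensity (vertical axis) of the antisense probe of MDP0000142824 in each hybridization of 1-MCP, 1-MCP+O3, O3 and Control fruit. Filled symbols are spots well above background and open symbols are not; circles are Cy3, squares Cy5, long lines are means of 2 extracts and short lines the lowest signal well above background in that channel. The 1-MCP-treated hybridizations lie at 6.94 or above, and all O3 and Control spots, at 6.75 or below, are open.

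Other genes of the same families were taken from the 1482 rows of the study's annotation table used here, most of which the study had picked on these arrays as higher in 1-MCP vs Control. Their counts in that comparison are therefore a description and not independent evidence of direction. O3 vs Control and 1-MCP+O3 vs Control used the same Control extracts, so the counts there are not independent of this choice either. Only 1-MCP+O3 vs O3 has no extract in common with 1-MCP vs Control. Of the 7 other universal stress protein genes, 6 were called up in 1-MCP vs Control and 0 in O3 vs Control. In 1-MCP+O3 vs Control 5 were called up, and in 1-MCP+O3 vs O3 4. Over all sense probes 2.26%, 1.71%, 2.05% and 1.38% were called up in the same order. In O3 vs Control 6 of the 7 were higher on both arrays, as were 23.6% of all sense probes. The joint fit of all arrays, which treats hybridizations of the same extract as independent, called 2 of the 7 up. It called 5899 of 59208 sense probes in either direction. The fit without the replicate block called 1 of the 7 up, and 1586 sense probes in either direction. None of the 7 was called lower in any comparison. Their median log2 ratios were 1.33, 0.42, 1.38 and 0.97 in that order, beside medians of all sense probes between 0.00 and 0.01. No gene of these lists passed an adjusted p of 0.05 (lowest 0.181), nor did any sense probe in any of the 4 comparisons, although 7232, 5131, 6374 and 5387 had an unadjusted limma p under 0.05.

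The highest of these in 1-MCP vs Control was MDP0000848358, with mean log2 ratios of 2.48 ± 0.05 (SD, n = 2; limma, adjusted p = 0.181) in 1-MCP vs Control, 0.84 ± 0.29 in O3 vs Control, 2.12 ± 0.20 in 1-MCP+O3 vs Control and 1.71 ± 0.27 in 1-MCP+O3 vs O3. Its 1-MCP effect was smaller in ozone by 0.91 on the log2 scale in the joint fit of all arrays (limma, adjusted p = 0.337). This estimate also sets arrays of different slides against each other. MDP0000688187, paired with the same Arabidopsis gene as MDP0000142824, had 1.11 ± 0.09, 0.47 ± 0.27, 1.38 ± 0.33 and 0.74 ± 0.89 in the same order of comparisons. The ratios of MDP0000142824 were the highest of the family in all 4 comparisons, an order that its selection bears on.

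Of the 3 HVA22 homologues, 3 were called up in 1-MCP vs Control and 0 in O3 vs Control. In 1-MCP+O3 vs Control 1 was called up, and in 1-MCP+O3 vs O3 2. Over all sense probes 2.26%, 1.71%, 2.05% and 1.38% were called up in the same order. In both 1-MCP+O3 comparisons 3 of 3 homologues were higher on both arrays, as were 26.3% and 24.3% of all sense probes. The gene model annotated as HVA22 homologue D, MDP0000324254, had mean log2 ratios of 1.14 ± 0.14 in 1-MCP vs Control, 0.44 ± 0.10 in O3 vs Control, 2.00 ± 0.33 in 1-MCP+O3 vs Control and 1.65 ± 0.88 in 1-MCP+O3 vs O3, and was called in the first and the third. It was higher in 1-MCP+O3 on both arrays against O3 (2.27 and 1.03), where MDP0000574524, which shares the name in the study's text, had 0.75 and -0.35. Both gene models of HVA22 homologue A, MDP0000157647 and MDP0000312509, were called in 1-MCP vs Control (1.05 ± 0.30 and 1.51 ± 0.45). They were also called in 1-MCP+O3 vs O3 (1.15 ± 0.19 and 1.52 ± 0.44). In 1-MCP+O3 vs Control they had 0.36 ± 0.48 and 0.59 ± 0.11 and were not called. In O3 vs Control they had -0.14 ± 0.47 and -0.20 ± 0.14.

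Of the 6 other small heat shock protein genes, 6 were called up in 1-MCP vs Control and 0 in O3 vs Control. In 1-MCP+O3 vs Control 3 were called up, and in 1-MCP+O3 vs O3 2. Over all sense probes 2.26%, 1.71%, 2.05% and 1.38% were called up in the same order. In 1-MCP+O3 vs Control 5 of the 6 genes were higher on both arrays, as were 26.3% of all sense probes. The medians of the 6 genes were 1.04, -0.12, 1.00 and 1.15. In O3 vs Control their mean log2 ratios ran from -0.57 to 0.03 and none was higher on both arrays, whereas MDP0000574524 had 0.83. In 1-MCP+O3 vs O3 they ran from 0.80 to 2.20 and 6 of 6 were higher on both arrays, whereas MDP0000574524 had 0.20 (0.57 when taken through Control). The ratios of MDP0000574524 on the arrays of both comparisons thus lay outside the range of the other members, in opposite directions, which was not tested because the gene was chosen for its pattern. HSP21 (MDP0000214382), a chloroplast small heat shock protein, had 2.93 ± 0.18 in 1-MCP vs Control (limma, adjusted p = 0.181), -0.57 ± 0.39 in O3 vs Control, 1.98 ± 0.44 in 1-MCP+O3 vs Control and 2.20 ± 0.88 in 1-MCP+O3 vs O3. HSP22.0 (MDP0000136609), of the endoplasmic reticulum, had 2.89 ± 1.04, 0.03 ± 0.25, 1.83 ± 0.52 and 1.81 ± 0.27 in the same order.

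Of 8 genes for other chaperones and for their regulator, 6 were called up in 1-MCP vs Control and 1 in O3 vs Control. In 1-MCP+O3 vs Control 0 were called up, and in 1-MCP+O3 vs O3 2. Over all sense probes 2.26%, 1.71%, 2.05% and 1.38% were called up in the same order. The medians of the 8 genes were 0.85, -0.20, 0.49 and 0.83. In 1-MCP+O3 vs Control 6 of the 8 were higher on both arrays, as were 26.3% of all sense probes. The joint fit of all arrays called 5 of the 8 up, and 10113 of 59208 sense probes in either direction. That fit treats hybridizations of the same extract as independent. The fit without the replicate block called 4 of the 8 up, and 3868 sense probes in either direction. The 0 thus does not show that the 1-MCP response was lost, nor do these counts show that it was kept. The gene called in O3 vs Control was the DnaJ co-chaperone gene MDP0000271337, at 0.89 ± 0.02 (limma, adjusted p = 0.612), which had 0.81 ± 0.23 in 1-MCP vs Control and 0.35 ± 0.70 in 1-MCP+O3 vs O3. Its ratio in O3 vs Control was 0.78 with median centring and 0.87 on processed signals, and it was not called with either, nor in the fit without the replicate block. HSP101 (MDP0000217508), which refolds aggregated proteins, had 1.05 ± 0.04 in 1-MCP vs Control. In O3 vs Control it had -0.35 ± 0.01 and was lower on each array. It had -0.09 ± 0.14 in 1-MCP+O3 vs Control (0.24 with median centring) and 0.92 ± 0.22 in 1-MCP+O3 vs O3. The other gene model of HSP101, MDP0000303015, had 0.65 ± 0.05, -0.41 ± 0.48, 0.56 ± 0.52 and 0.94 ± 0.53 in the order of the lists. HSFA2 (MDP0000243895), a transcription factor that drives heat shock genes, was not called in any comparison, with 0.77 ± 0.26, -0.30 ± 0.38, -0.18 ± 0.88 and 0.45 ± 0.79 in the order of the other lists. The value of HSFA2 in 1-MCP+O3 vs Control was 0.05 with median centring. The 1-MCP effect differed between ozone and no ozone at an adjusted p under 0.05 for none of the 24 listed genes.

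With median centring in place of loess most of the list calls ended. In 1-MCP vs Control 0 of 7 universal stress protein genes, 0 of 3 HVA22 homologues, 2 of 6 small heat shock protein genes and 0 of 8 other chaperones were then called up. On the scanner software's processed signals 3, 1, 1 and 2 of the same lists were called up. The ratios in 1-MCP vs Control moved little, to 2.48 with median centring and 2.46 on processed signals for MDP0000848358, to 2.95 and 3.08 for HSP21 (MDP0000214382) and to 1.20 and 1.39 for MDP0000324254. The 3 listed genes MDP0000707712, MDP0000172536 and MDP0000276013 were well above background in only 10, 11 and 10 of 16 channels. Their log2 ratios in 1-MCP vs Control were 1.13, 1.15 and 0.68, and 2.64, 2.33 and 1.27 on processed signals. Their ratios may be drawn toward 0, which was not tested.

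**Figure D4:**
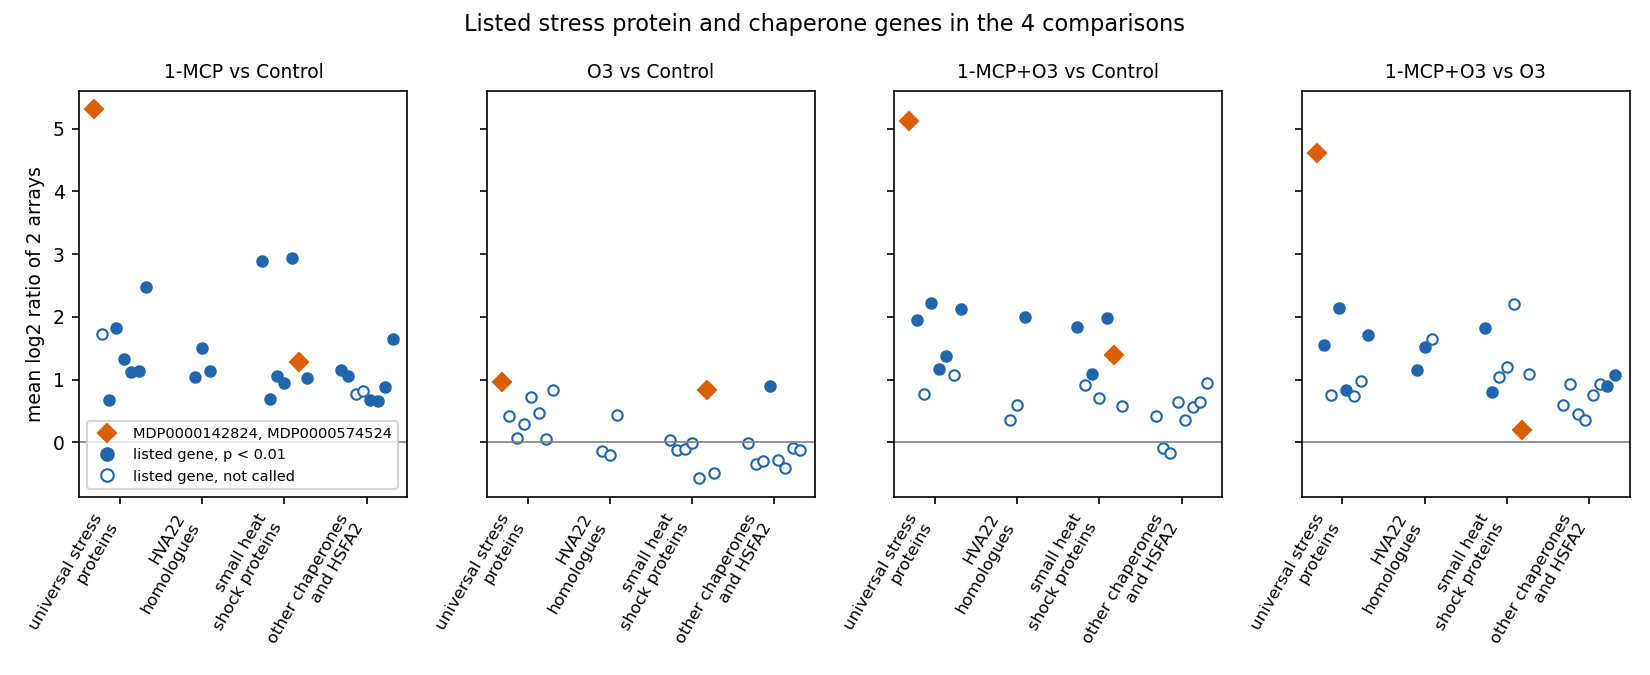
Mean log2 ratio of 2 arrays (vertical axis) of the listed universal stress protein, HVA22, small heat shock protein and other chaperone genes in the 4 comparisons. Each point is a gene; filled points had a limma p under 0.01, open points did not, and diamonds are MDP0000142824 and MDP0000574524, which were not tested. MDP0000142824 stands above its family in each panel, and MDP0000574524, at 0.83 in O3 vs Control and 0.20 in 1-MCP+O3 vs O3, stands above and below the other small heat shock protein genes.

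The sense probes with the pattern most like that of each gene were found by the root mean square difference of the log2 ratios over the 8 arrays, among 33101 probes above background on every array. For MDP0000142824 the nearest was MDP0000196174, annotated as an unknown protein, with a difference of 0.51 log2 units and ratios of 5.52, 1.02, 4.79 and 4.32 in 1-MCP vs Control, O3 vs Control, 1-MCP+O3 vs Control and 1-MCP+O3 vs O3. The next were MDP0000148121 (0.57), annotated as PSAG, a subunit of photosystem I, MDP0000156578 (0.64), which had no name in the rows used, and MDP0000259706 (0.67) and MDP0000135220 (0.98), annotated as the photosystem I antenna proteins LHCA1 and LHCA3. In O3 vs Control, where MDP0000142824 had 0.96, MDP0000259706 also had 0.96 and MDP0000135220 had -0.44.

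For MDP0000574524 the nearest was MDP0000120367, annotated as a RING zinc finger protein, with a difference of 0.21 log2 units and ratios of 1.38, 1.01, 1.29 and 0.30 in the same order. It was followed by MDP0000364139 (0.29), an unknown protein, MDP0000238589 (0.30), annotated as histone H4, a core protein of chromatin, MDP0000181673 (0.32), annotated as the Rab GDP dissociation inhibitor GDI2, which takes part in membrane traffic, and MDP0000341311 (0.33), not named in the rows used. None of the 5 was a listed heat shock protein or chaperone gene. The distances of both sets are a description over 8 arrays that share extracts.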

How the data were processed

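Peel RNA of 4 groups, 2 extracts each, was co-hybridized on 8 arrays. The authors scanned the arrays and extracted spots with Agilent Feature Extraction 11.5.1.1, and deposited for every spot a median intensity of signal and of local background, neither of them corrected or normalized. The processed intensity they deposited as well was background-subtracted and dye-normalized by that software. They next applied lowess and limma at an unadjusted p of 1%. Of the columns of each array, 14 were used and 19 were not. Columns of the authors' own comparisons were not used.

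Between 1 and 74 outlier spots per array were removed. Background correction was by normexp (offset 50), log2 ratios were normalized by loess, the spots of a probe were averaged, and dye swaps were turned so that ratios run first-named over second-named group. Levels are single channels after Aquantile normalization between arrays. Each comparison was fitted by limma 3.58.1 (R 4.3.3, the data.table package, version 1.17.8) on 2 arrays, with 1 residual degree of freedom before moderation, called at an unadjusted p under 0.01 and adjusted by Benjamini-Hochberg over 133709 probes. The scripts were tested on simulated data. Whether replicates A and B were separate fruit lots is not stated in the labels or methods used. The p-values therefore measure only spread between the 2 arrays of a comparison, which differ in extract and in dye. Moderation by limma draws this spread, for each probe, toward a common value estimated over all probes. Precision is limited by there being 2 arrays per comparison.

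The members and lists were chosen with earlier results of these data known. The genes named are both members on either strand, the listed family genes in the rows used of the study's annotation table, and for each member the 5 sense probes of the nearest pattern. Alternatives were no background correction, processed signals, median centring and a joint fit of all arrays with a dye term for each slide. Others were fits without each replicate, a fit without the replicate block, a filter on dim probes, an adjusted p and the trend and robust options. For counts and antisense ratios, leaving out a replicate dropped only its array of the comparison in question from the joint fit. The other arrays of that replicate stayed in that fit.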

Additional observations from a re-analysis of the deposited data

How the results depend on the processing

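Under the 5 other ways of normalizing or fitting that were run, and without either replicate, the log2 ratios of both genes against Control kept their sign, and those of MDP0000142824 in 1-MCP+O3 vs O3 did too. The ratio of MDP0000574524 in 1-MCP+O3 vs O3 was -0.35 without replicate A and 0.75 without replicate B. In 1-MCP vs Control, MDP0000142824 had 5.08 without the replicate block and 5.52 on processed signals. MDP0000574524 had 1.51 on processed signals in 1-MCP vs Control and 1.77 in 1-MCP+O3 vs Control. Causes were not tested. The antisense probe of MDP0000142824 had 4.40, 5.16 and 4.87 on processed signals in 1-MCP vs Control, 1-MCP+O3 vs Control and 1-MCP+O3 vs O3. Near 0, signs of 3 antisense ratios turned, none of them called. MDP0000142824 had -0.025 in O3 vs Control without background correction. MDP0000574524 had -0.0033 without replicate B and 0.27 without replicate A in 1-MCP vs Control, and 0.041 with median centring and 0.39 on processed signals in O3 vs Control.

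Counts of called sense probes, 2744, 1449, 2145 and 1831 in 1-MCP vs Control, O3 vs Control, 1-MCP+O3 vs Control and 1-MCP+O3 vs O3, were 0 in each at an adjusted p under 0.05. In the same order they were 810, 77, 414 and 420 with median centring, and 8006, 5899, 10113 and 9753 in the joint fit, which treats hybridizations of one extract as independent. They were 1740 and 681 in the first 2 comparisons on processed signals, and 879, 1349 and 1143 in the last 3 over probes above background only. Leaving out either replicate, in the joint fit with more degrees of freedom, gave 4522 to 4878, 3197 to 4653, 6410 to 7240 and 6556 to 8177. With median centring the share called higher was 7.79% in O3 vs Control, 69.8% in 1-MCP+O3 vs Control and 31% in 1-MCP+O3 vs O3, against 69.8%, 56.6% and 44.5% with loess.

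Without the replicate block the counts were 3868 in 1-MCP+O3 vs Control and 4366 in 1-MCP+O3 vs O3, where 7 of 7 universal stress protein, 5 of 6 small heat shock protein and 5 of 8 other chaperone genes were called up. Deviations of same-letter extracts from their group means correlated between -0.512 and 0.643 over the 6 pairs of groups. The dye changes with the letter, so these correlations cannot show whether same-letter extracts share more than a letter. Among the lists, without replicate A 1 of 3 HVA22 homologues and 3 of 8 other chaperones were called in 1-MCP vs Control, and without replicate B 0 of 3 HVA22 homologues and 2 of 6 small heat shock protein genes. The DnaJ call in O3 vs Control ended without either replicate, with median centring, on processed signals and without the replicate block. Of the 8 other chaperones 4 were called in 1-MCP+O3 vs Control without A and 4 without B, and in 1-MCP+O3 vs O3 6 of 6 small heat shock protein genes were called without A and without B. These fits kept the arrays of both replicates in the other comparisons, so the calls in the 1-MCP+O3 comparisons do not rest on a single replicate. The 1-MCP group was only on the arrays of 1-MCP vs Control. Without A or B the calls in that comparison therefore rest on a single extract of that group. Arrays limit these results in that a gene below background has only a bound.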
